A study of Mus musculus with 10 samples.

Results

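Accessible stretches of the genome that fall inside coding exons were examined in F123 mouse embryonic stem cells (mESCs). The set comprised 3113 ATAC-seq peaks on chromosomes 1 to 19. Each had its midpoint in the coding sequence of a protein-coding gene and over 2 kb from every annotated transcript start. They were 1.80% (95% Wilson interval 1.74 to 1.86) of the 172958 autosomal peaks and 2.40% of the 129701 autosomal peaks over 2 kb from starts. The whole list held 179109 peaks. Coding sequence made up 0.950% of the known autosomal bases over 2 kb from starts.

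F123 is a hybrid line from a cross of Mus musculus castaneus with S129/SvJae. Feeder cells (CF1 mouse embryonic fibroblasts, irradiated) supported the culture up to the final passage, for which gelatin replaced them. The labels name no other treatment. ATAC-seq was done on 100000 cells per sample and H3K4me3 ChIP-seq on 2000000 fixed cells per sample, with 2 replicates each. Each assay is represented by 1 list of peaks that stands for both replicates, from this single line. No value below has a spread between replicates, no test over samples was possible, and the depth of the libraries is unknown. All intervals are 95% intervals (Wilson for shares, Poisson for densities) that cover counting error only and treat neighbouring peaks as independent. Transcript starts of 8 of 8 stem cell marker genes had an H3K4me3 peak within 1 kb, against 5 of 8 fibroblast marker genes and 14559 of all 20807 autosomal protein-coding genes. Col3a1, S100a4 and Postn were the fibroblast genes without one. The part of any feeder cells in these peaks was not tested.

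ATAC-seq marks DNA that the Tn5 transposase can enter, which includes promoters, enhancers and sites bound by factors such as CTCF. H3K4me3 is a histone mark found chiefly at active or poised promoters and at CpG islands, stretches rich in unmethylated CpG dinucleotides. Coding exons are as a rule richer in GC than the introns beside them, and a coding exon can also lie in a regulatory element or in an unannotated promoter.

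Several of these peaks are shown in full to make plain what such a stretch holds. They are read from the RefSeq copy of mm10 on the strand of the gene. The first set is from the genes with the most coding-exon peaks, on the chromosomes considered for printing, and the peak of at most 300 bp nearest to the middle of its exon was taken. The Sptbn4 peak lay at chr7:27370442-27370642 (minus strand) in coding exon 24 of 35. The Zfhx3 peak lay at chr8:108955476-108955647 (plus strand) in the last coding exon. The Smarcc2 peak lay at chr10:128482759-128482887 (plus strand) in coding exon 20 of 28. None of them holds the CTCF core CAGGNGGC, so no letters are in capitals.
Sptbn4: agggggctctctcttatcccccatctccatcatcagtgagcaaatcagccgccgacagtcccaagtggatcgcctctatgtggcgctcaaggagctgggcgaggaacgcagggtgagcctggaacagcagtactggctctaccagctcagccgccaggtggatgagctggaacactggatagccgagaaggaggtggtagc
Zfhx3: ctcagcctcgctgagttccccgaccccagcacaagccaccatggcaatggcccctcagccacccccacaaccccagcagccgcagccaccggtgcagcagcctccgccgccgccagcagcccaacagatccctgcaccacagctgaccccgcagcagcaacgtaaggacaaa
Smarcc2: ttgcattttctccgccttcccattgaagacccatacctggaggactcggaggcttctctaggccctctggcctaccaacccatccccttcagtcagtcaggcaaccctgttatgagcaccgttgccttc

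The second set is shown for the CTCF core, the letters CAGGNGGC on either strand, which are in capitals. Among the peaks of at most 300 bp on these chromosomes, these hold the core nearest to their midpoint. The Clip1 peak lay at chr5:123642421-123642696 (minus strand) in coding exon 5 of 25. The Fam83c peak lay at chr2:155831400-155831600 (minus strand) in coding exon 2 of 4, with 53.7% of its bases coding. The Prr12 peak lay at chr7:45048631-45048753 (minus strand) in coding exon 4 of 14 and holds the core 2 times.
Clip1: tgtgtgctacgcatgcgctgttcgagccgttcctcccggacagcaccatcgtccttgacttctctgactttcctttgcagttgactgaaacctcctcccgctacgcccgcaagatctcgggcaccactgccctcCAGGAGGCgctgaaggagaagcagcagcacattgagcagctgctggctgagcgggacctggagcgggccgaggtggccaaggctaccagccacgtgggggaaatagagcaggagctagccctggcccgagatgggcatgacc
Fam83c: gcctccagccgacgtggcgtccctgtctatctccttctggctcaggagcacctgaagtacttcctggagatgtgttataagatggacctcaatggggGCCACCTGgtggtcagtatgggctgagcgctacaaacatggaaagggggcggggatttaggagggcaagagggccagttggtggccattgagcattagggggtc
Prr12: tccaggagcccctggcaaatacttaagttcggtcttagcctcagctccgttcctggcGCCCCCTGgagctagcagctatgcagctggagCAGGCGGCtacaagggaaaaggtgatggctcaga

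Coding exons held more ATAC-seq peaks per base than any other annotation over 2 kb from starts. The density was 154 peaks per Mb (149 to 160) over 20.16 Mb of coding sequence. Untranslated regions (UTRs) held 88.9 per Mb (85.7 to 92.1) and exons of noncoding genes 80.9 (75.5 to 86.6). Introns of protein-coding genes held 66.2 per Mb (65.7 to 66.8), introns of noncoding genes 55.6 and intergenic sequence 55.7 (55.3 to 56.2). The coding density was thus 2.33 times the intronic density (2.25 to 2.42) and 2.77 times the intergenic one. Intronic sequence within 100 bp of coding sequence held 86.2 peaks per Mb (82.1 to 90.4), sequence 100 to 250 bp away held 72.1, and sequence over 5000 bp away held 59.5.

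**Figure D1:**
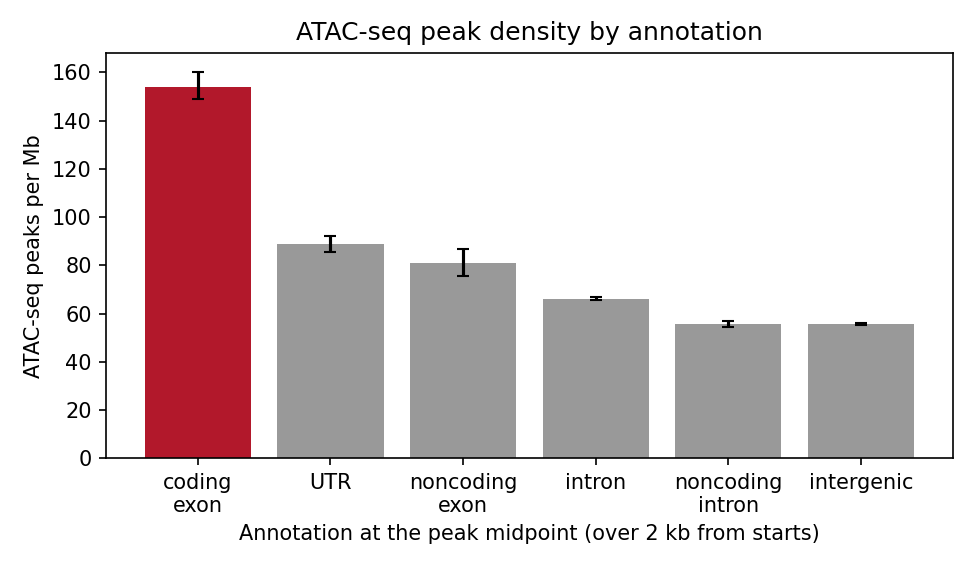
ATAC-seq peaks per Mb by the annotation at the peak midpoint, over 2 kb from transcript starts on chromosomes 1 to 19. Bars give the density and error bars the 95% Poisson interval. Coding exons (154 per Mb) stand above UTRs (88.9) and introns (66.2).

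The order of coding and intronic sequence turned round once their base composition was matched. In windows of 200 bp with a GC content of 50 to 55%, coding sequence held 135 peaks per Mb (125 to 147) and introns held 174 (172 to 177). At 55 to 60% GC the densities were 257 (241 to 273) and 346 (340 to 353), and at 60% or more they were 655 (620 to 692) and 836 (812 to 861). Coding density was lower than intronic density in every GC class from 40% up. Only 4.38% of intronic bases had a GC content of 55% or more, against 28.4% of coding bases. At the GC mix of coding sequence introns would hold 206 peaks per Mb, and the coding density was 0.751 times that value. At the CpG mix of coding sequence introns would hold 170 per Mb, and the ratio was 0.910. Windows with 15 or more CpG dinucleotides were the only CpG class where the coding value was higher, at 1401 per Mb (1265 to 1547) against 1212 (1086 to 1349), with overlapping intervals. The intervals also overlapped at 6 to 9 CpG, with 234 (221 to 249) in coding sequence and 238 (232 to 245) in introns. At 0 to 1 CpG they overlapped too, with 34.2 (28.5 to 40.8) and 39.8 (39.2 to 40.4). Both matched comparisons were chosen after the unmatched values were seen.

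**Figure D2:**
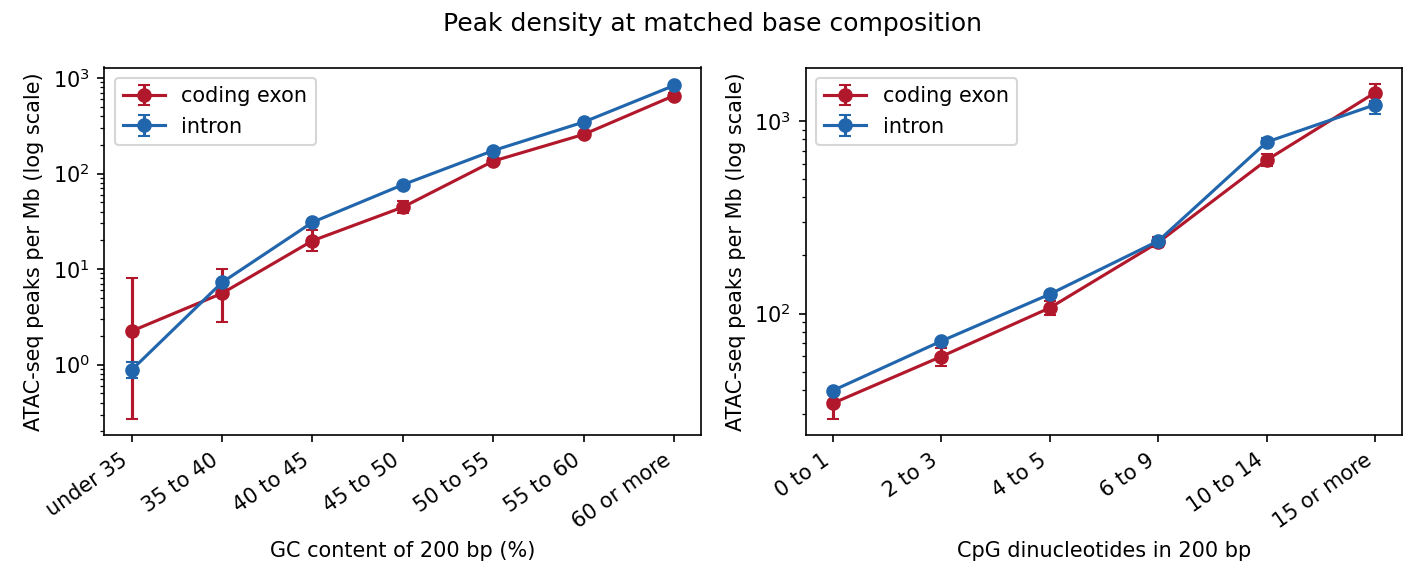
ATAC-seq peaks per Mb (log scale) in coding exons (red) and introns (blue) by GC content (left) and by number of CpG dinucleotides (right) of 200 bp windows. Points give the density and error bars the 95% Poisson interval. From 40% GC up each coding point lies under the intronic point.

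The coding-exon peaks themselves were rich in GC and CpG. Their median GC content over the central 200 bp was 58.5% (quartiles 54.5 and 62.5), against 51.5% for intronic peaks and 51.0% for intergenic peaks. Coding exons of the same genes without a peak also had a median of 51.0%. Their windows were 200 bp around the exon middle and can reach into introns. Over all genes, exons without a peak had a median length of 127 bp, against 241 bp for exons with one. CpG dinucleotides numbered 4.32 per 100 bases in the coding-exon peaks, 2.26 in the exons without a peak, 1.53 in intronic peaks and 1.78 in intergenic peaks. Peaks within 2 kb of a start were alike in these measures, with a median GC content of 57.0% and 4.73 CpG per 100 bases.

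The density of coding-exon peaks varied less with distance from a transcript start than that of intronic peaks. It was 166 per Mb (156 to 176) at 2 to 5 kb, 149 at 10 to 20 kb and 111 (90.5 to 134) over 50 kb. The intronic values were 78.5, 73.8 and 37.8. The median distance to a start was 6785 bp for coding-exon peaks, 6572 bp for UTR peaks and 11437 bp for intronic peaks. Most peaks with a coding midpoint lay nearer to a start than the 2 kb limit allowed (4623 of 7736, 59.8%). At the limit itself, the nearest peak left out lay 2000 bp from a start and the nearest one taken lay 2003 bp away. There were 302 coding peaks at 1501 to 2000 bp and 276 at 2001 to 2500 bp.

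Coding-exon peaks were wider than intronic ones. Their median width was 322 bp (quartiles 193 and 512, widest 2278), against 231 bp in introns, 246 bp in intergenic sequence and 385 bp near starts. Peaks over 1000 bp were 148 of 3113 (4.75%), and 1.12% of intronic peaks. Another peak lay within 1 kb of 33.1% of them, compared with 35.4% of UTR peaks and 27.9% of intronic peaks. Many reached past the exon. The median share of coding bases in a peak was 71.9%, 838 peaks (26.9%) were wholly coding, and 2437 (78.3%) were coding over at least 50% of their length.

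The widest coding-exon peaks lay in last coding exons and under H3K4me3. The widest, 2278 bp, lay in Zfp316, a zinc finger gene, at chr5:143252943-143255220, with a GC content of 76.0% and an H3K4me3 fold enrichment of 18.3. A peak of 2069 bp lay in Bcl11b, a transcription factor of T cell development, 87068 bp from the nearest start and with a fold enrichment of 11.4. The next were in Cbarp (1975 bp), Fam83h (1972 bp) and Prdm13 (1863 bp), with fold enrichments of 3.95, 5.27 and 17.5. None of these 5 lay under an H3K4me3 peak that covered a start.

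H3K4me3 overlapped 1115 of the 3113 coding-exon peaks by at least 1 bp (35.8%, 34.2 to 37.5). Of all 129701 autosomal ATAC-seq peaks over 2 kb from starts 9.80% did so. The share was 8.09% (7.86 to 8.33) for intronic peaks, 13.1% for UTR peaks, 9.72% for intergenic peaks and 55.3% for peaks near starts. The H3K4me3 peaks touched by coding-exon peaks numbered 1047. Their median fold enrichment, the signal over the background of the peak caller, was 6.38, below the 8.81 of all 32496 autosomal H3K4me3 peaks. They were also narrower, with a median width of 922 bp against 1130 bp. Of the coding-exon peaks 41 lay under an H3K4me3 peak that covered a start and 1074 (34.5%) under one that covered none. The share fell with distance from a start, from 51.7% of coding peaks at 1501 to 2000 bp, which are outside the set, to 50.0% at 2001 to 2500 bp, 42.7% at 2501 to 3000 bp, 40.8% at 3001 to 5000 bp and 34.3% at 5001 to 10000 bp. Peaks under H3K4me3 that covered no start lay a median of 5864 bp from the nearest start, and those without H3K4me3 lay 7498 bp away. The part of promoter marks that spread into these exons was not tested.

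The overlap rose with CpG content and, from 150 bp up, with width. Under 150 bp it was 16.1% (12.7 to 20.1) for coding-exon peaks and 4.10% (3.69 to 4.55) for intronic peaks. From 150 to 199 bp it was 13.7% for coding-exon peaks and 3.26% for intronic peaks, from 500 to 999 bp it was 66.0% and 22.7%, and at 1000 bp or more it was 89.2% (83.2 to 93.2) and 33.2% (29.4 to 37.1). At up to 5 CpG dinucleotides in 200 bp both kinds of peak were marked about as often, with 10.3% (7.92 to 13.2) and 10.5% (9.86 to 11.1) at 4 to 5. They parted above that, with 52.8% and 20.5% at 10 to 14. At 15 or more, 370 of 391 coding-exon peaks (94.6%, 91.9 to 96.5) overlapped H3K4me3, against 43.3% (38.1 to 48.7) of intronic peaks. Intronic peaks weighted to the mix of the coding-exon peaks would overlap in 12.9% of cases when matched on GC, 14.1% on GC and width, and 19.5% on CpG. The coding-exon share was 2.77, 2.54 and 1.84 times these values.

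**Figure D3:**
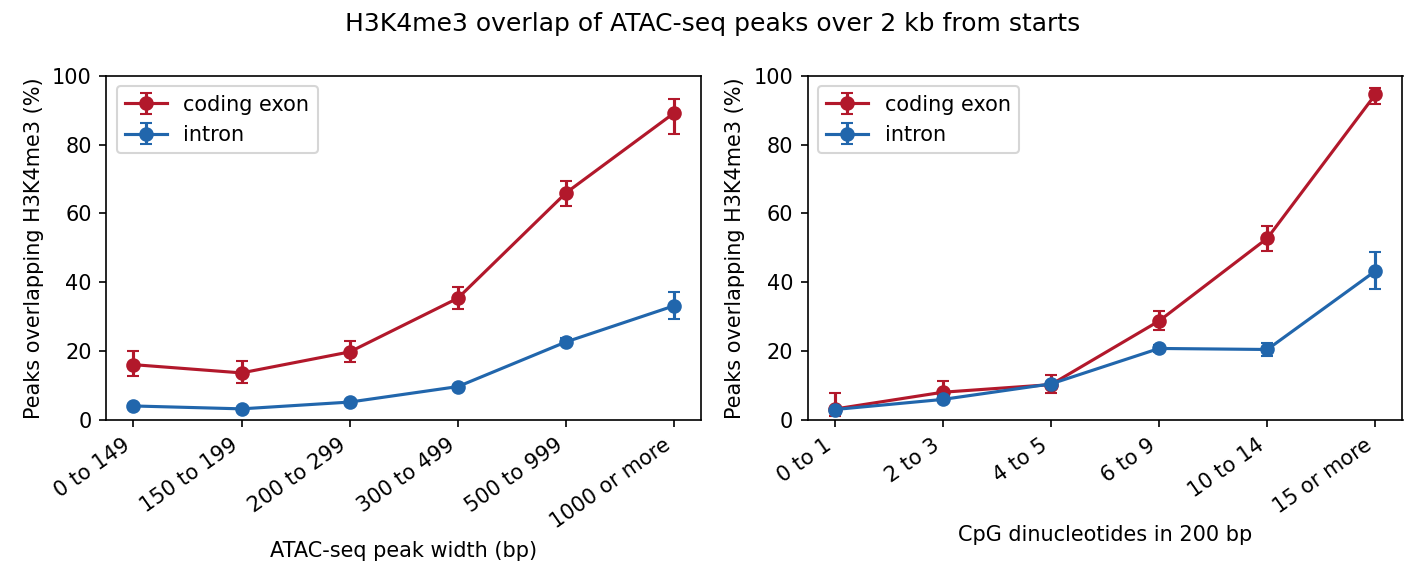
Share of ATAC-seq peaks that overlap an H3K4me3 peak, by peak width (left) and by CpG dinucleotides in the central 200 bp (right), for coding-exon peaks (red) and intronic peaks (blue). Error bars are 95% Wilson intervals. The curves meet at 4 to 5 CpG (10.3% and 10.5%) and part at 15 or more (94.6% and 43.3%).

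The 5 coding-exon peaks that overlapped the H3K4me3 peaks of highest fold enrichment lay in Prdm2, Sall2, Mex3b, Klf5 and Zbtb45. The value belongs to the whole H3K4me3 peak, and the place of its summit relative to the exon was not examined. The highest, 50.5, was of an H3K4me3 peak that reached over coding exon 5 of Prdm2, a PR domain zinc finger gene. That H3K4me3 peak was 1835 bp wide and covered no annotated start. Only 11.8% of the ATAC-seq peak there was coding. The next 4 lay under H3K4me3 peaks that did cover a start, of 3864 to 5782 bp, in Sall2 (48.1), Mex3b (45.9), Klf5 (41.4) and Zbtb45. Other strong H3K4me3 peaks with no start under them overlapped coding-exon peaks in last coding exons of Ano8 (32.2), Pomc (30.9), Prdm12 (30.2) and Sobp (30.1). Pomc encodes the precursor of several peptide hormones.

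Position within the gene was described on the longest coding transcript of each gene. Last coding exons held 892 peaks, or 233 per Mb (218 to 249), and internal exons held 1908, or 129 per Mb (124 to 135). First coding exons had 193 per Mb (161 to 231) and the exons of genes with a single coding exon 198 (166 to 235). The excess of last over internal exons was present within exons of up to 149 bp (176 and 88.1 per Mb) and of 300 to 999 bp (299 and 237), while at 1000 bp or more the values were 185 (162 to 210) and 170 (147 to 196). By exon number the second coding exon had 196 per Mb (177 to 217), the third to the tenth 129 to 166, and exons past number 40 had 96.8.

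The density spanned a wider range over exon length than over exon number. It was 88.5 per Mb (77.2 to 101) in exons under 100 bp, 277 (248 to 309) at 300 to 499 bp and 158 (138 to 179) at 2000 bp or more. Internal exons alone followed the same course, from 81.3 to 236 and 140. Exons with a peak had a median length of 241 bp, against 127 bp for those without. A longer exon holds a midpoint more often even at an equal density, so these medians differ in part by definition. H3K4me3 overlapped 15.8% of coding-exon peaks in exons under 150 bp and 52.9% in exons of 300 to 999 bp. By place in the gene, with each peak counted once, H3K4me3 overlapped 61.8% of peaks in first exons and 60.7% in single exons. It overlapped 47.9% in last exons and 27.0% in internal exons.

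**Figure D4:**
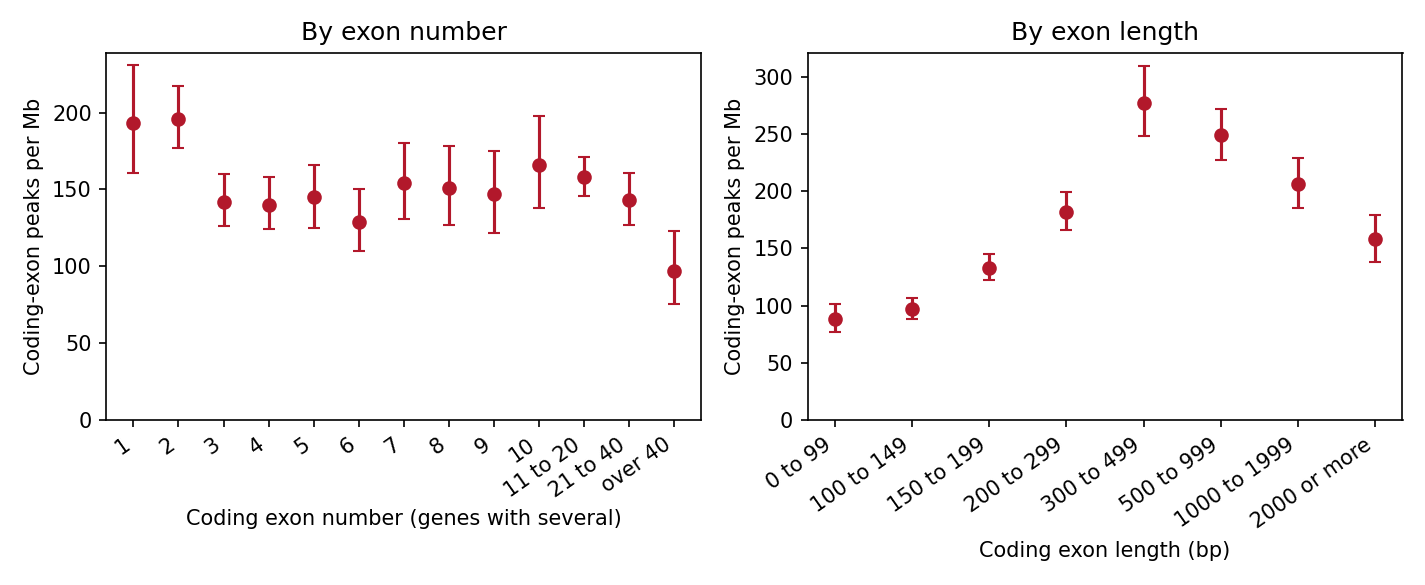
Coding-exon ATAC-seq peaks per Mb by coding exon number in genes with several coding exons (left) and by coding exon length (right). Points give the density and error bars the 95% Poisson interval. The density is highest at 300 to 499 bp (277 per Mb) and lowest under 100 bp (88.5).

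A few exons held several peaks. Of 2927 exons with a peak 115 held 2 or more and 13 held 3 or more. The most was 4, in the last coding exon of Cilp2 (2348 bp), in the single coding exon of Nrip1 (3483 bp), a corepressor of nuclear receptors, and in a 4329 bp exon of the mucin gene Muc6. The last coding exon of Foxa1, a forkhead factor of endoderm, held 3. Few peaks had the outline of the exon they lay in. Here each peak was counted once, by its assigned gene, which left 1902 internal-exon peaks. Of these 64 (3.36%, 2.64 to 4.27) had both ends within 20 bp of the exon ends, and 848 (44.6%) spanned the exon. Both neighbours of a pair of successive coding exons held a peak 116 times, in 106 genes, and 80 of these pairs had no ATAC-seq midpoint in the intron between them. The median intron of these pairs was only 1600 bp, and introns held 66.2 midpoints per Mb. How many such pairs or empty introns the densities alone would give was not worked out.

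By gene, 2506 of the 16008 protein-coding genes with coding sequence over 2 kb from starts (15.7%) held at least 1 peak. A peak in the coding sequence of more than 1 gene was counted in each. There were 2040 genes with 1 peak, 354 with 2 and 112 with 3 or more, and these last held 374 peaks (12.0%). The share of genes with a peak grew with the length of eligible coding sequence, from 4.48% under 500 bp to 54.2% at 8000 bp or more. The density per base fell over the same classes, from 170 per Mb (148 to 195) to 90.5 (75.6 to 107). Genes whose start had H3K4me3 held 169 coding-exon peaks per Mb (163 to 176) and genes whose start had none held 93.4 (84.3 to 103).

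Sptbn4, which encodes a spectrin of the axon initial segment, had the most, with 7 peaks in 7 different exons. They were 283, 757, 777, 310, 331, 323 and 201 bp wide in the order of transcription, and 5 of them overlapped H3K4me3 with fold enrichments of 22.8, 10.8, 3.44, 8.08 and 6.75. The first and the last overlapped none. The Sptbn4 peak printed above is the last. Zfhx3, a zinc finger homeobox factor, held 6 peaks of 143 to 1092 bp in 3 of its 9 coding exons, and 5 of them overlapped H3K4me3 at fold enrichments from 3.63 to 8.10. Smarcc2, a subunit of the SWI/SNF chromatin remodelling complex, held 5 narrow peaks of 128 to 245 bp between chr10:128481669 and chr10:128484512, none with H3K4me3. Of these 5, 1 lay in an exon outside the longest transcript.

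**Figure D5:**
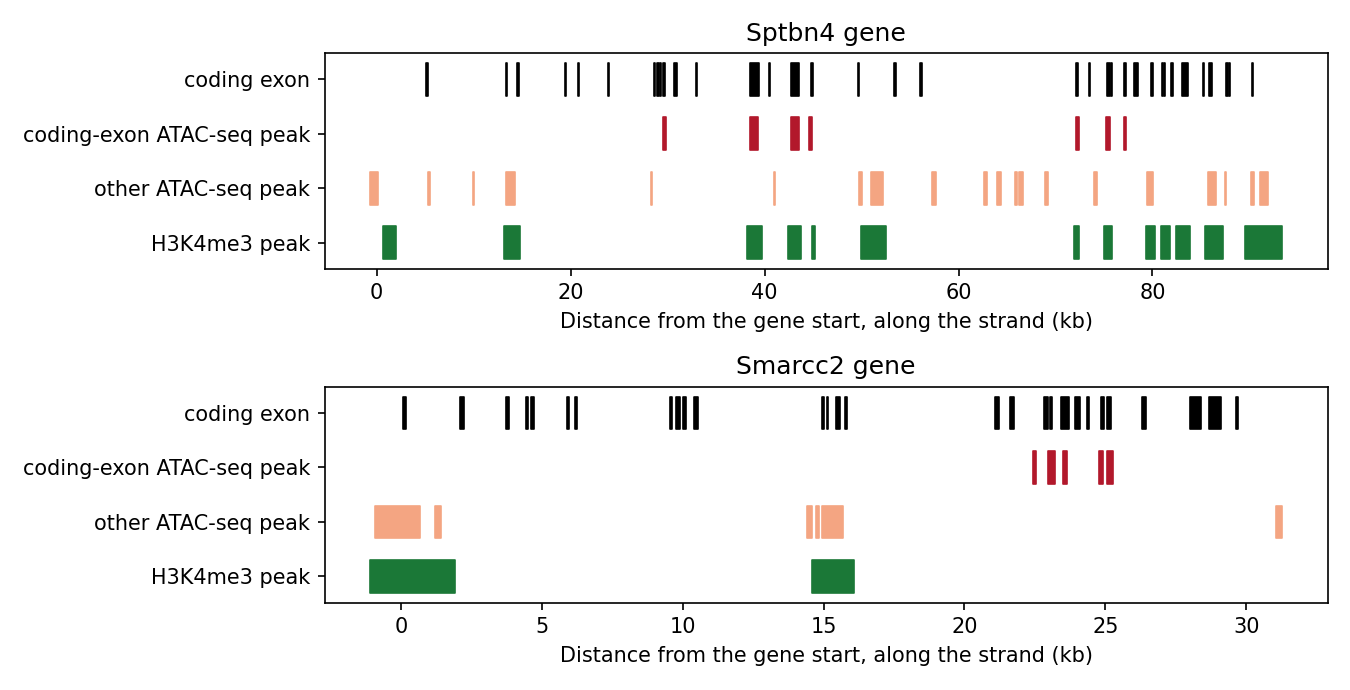
Coding exons of the longest transcript (black), coding-exon ATAC-seq peaks (red), other ATAC-seq peaks (orange) and H3K4me3 peaks (green) along Sptbn4 and Smarcc2, by distance in kb from the gene start. The 7 peaks of Sptbn4 are spread over the gene and 5 overlap H3K4me3, while the 5 of Smarcc2 sit together and overlap none.

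The other genes with 5 peaks had H3K4me3 at 4 of them or at none. Cacna1a, the pore subunit of a neuronal calcium channel, had 4 of 5 peaks under H3K4me3, with fold enrichments of 3.85 to 15.6. Ryr1, the calcium release channel of skeletal muscle, also had 4 of 5, at 3.09 to 15.3. Brwd1, a bromodomain protein, and Dst, a large cytoskeletal linker, had 0 of 5 each. These counts are not corrected for the length of eligible coding sequence. Among the genes with 5 peaks it ran from 3227 bp in Smarcc2 (1.55 peaks per kb) to 22400 bp in Dst (0.223 per kb). Ryr1 had 12891 bp (0.388 per kb). Sptbn4 had 6978 bp for its 7 peaks and Zfhx3 had 11169 bp for its 6 (0.537 per kb). In Brwd1 4 of the 5 peaks lay in the successive coding exons 5 to 8, were 109 to 240 bp wide, and had GC contents of 44.0 to 52.0%, below the median of the set. Both ends of 2 of the Brwd1 peaks lay within 20 bp of the exon ends.

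The named genes with 4 peaks, those with the most per kb, ranged from 4 of 4 with H3K4me3 to 0 of 4. All 4 peaks of Cilp2, a cartilage protein, lay under a single H3K4me3 peak of 3380 bp with a fold enrichment of 13.7. In F12, coagulation factor XII, 3 of 4 peaks lay in the successive exons 8 to 10 under an H3K4me3 peak of 1949 bp (fold enrichment 6.68), and F12 had the highest density of these genes at 2.39 peaks per kb. Rbm47, an RNA-binding protein, had 2.26 per kb and 2 of 4 peaks with H3K4me3. Srcin1, a regulator of Src kinase, had 4 of 4 at fold enrichments of 11.9 to 16.8. The cell polarity gene Pard3 (1.62 per kb) and Etl4 (1.31 per kb) had 0 of 4, and Mtcl1, a microtubule crosslinking factor, had 1 of 4.

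Gene groups differed in the density of coding-exon peaks, although most held few. Counts of genes are of those with coding sequence over 2 kb from starts. Over all such genes 15.7% held a peak, and 35.8% of all coding-exon peaks overlapped H3K4me3. In SWI/SNF genes 5 of 17 held 13 peaks, 339 per Mb (181 to 580), and none overlapped H3K4me3. Smarcc2 held 5 of these close together, and without that gene the group held 8, or 228 per Mb (98.5 to 449), an interval that holds the 154 of all genes. Arid1b had 3 and Arid2 had 2. Potassium channel genes held 24 peaks in 20 of 80 genes, 255 per Mb (164 to 380), and 16 overlapped H3K4me3. Kcnh2, Kcng4 and Kcnh6 had 2 each. With Smarcc2 counted, the interval of both groups lay above the 154 per Mb (148 to 159) of all genes.

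The groups with an interval below that value were collagens, axonemal dyneins and olfactory receptors. Collagen genes held 10 peaks in 8 of 43 genes, 66.7 per Mb, with 2 each in Col4a2 and Col6a3 and 1 in Col17a1. Axonemal dynein genes, which move cilia, held 9 peaks in 7 of 15 genes, 53.4 per Mb (24.4 to 101), with 2 each in Dnah10 and Dnah14 and 1 in Dnah2. Only 97 of 1128 autosomal olfactory receptor genes had coding sequence over 2 kb from starts. These 97 held 5 peaks in 5 genes, 62.8 per Mb (20.4 to 147), and Olfr1 and Olfr378 were among them. None of the dynein or olfactory receptor peaks overlapped H3K4me3, against 35.8% of the whole set, but both groups held few peaks.

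For the other groups, apart from the pluripotency genes, the interval held the value of all genes. The Zfp zinc finger genes were the largest group, with 84 peaks in 67 of 362 genes, 149 per Mb (119 to 184). H3K4me3 overlapped 50 of these peaks, against 35.8% of the whole set. Zfp668, Zfp64 and Zfp142 had 3 each. Myosin genes held 30 peaks in 18 of 39 genes, 195 per Mb (131 to 278), with 3 each in Myo19, Myh14 and Myo10. Calcium channel genes held 11 peaks in 4 of 9 genes, 238 per Mb (119 to 426), 5 of them in Cacna1a and 2 each in Cacna1g and Cacna1b. ADAMTS and ADAMTS-like genes held 14 peaks in 10 of 24 genes, 215 per Mb (118 to 361), led by Adamts10, Adamts3 and Adamtsl3.

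Groups of signalling and adhesion genes held from 1 to 8 peaks each. Of all genes 15.7% held a peak, a share that grew with coding length, so these counts do not compare groups of unlike length. The large cadherins had a median of 7909 bp of eligible coding sequence, against 886 bp over all genes. Densities ran from 49.4 per Mb in plexins (1.25 to 275) to 316 in the Notch pathway (127 to 652). The Notch pathway had 7 in 4 of 7 genes, with 2 each in Jag1, Notch2 and Notch3. LDL receptor relatives had 8 in 4 of 11, of which 4 in Lrp1, none with H3K4me3, and 2 in Lrp12, and semaphorins had 8 in 6 of 20, led by Sema4f and Sema5b. The large cadherins had 8 in 5 of 9, with 2 each in Celsr3, Dchs2 and Fat1. Integrins had 7 in 6 of 30, laminins 5 in 4 of 11 and plexins 1 in 7 genes, with Itgb3, Lama2 and Plxnb1 first in their groups.

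Groups of nuclear and cytoskeletal genes had similar counts, to be read beside the 15.7% of all genes with a peak. Densities ran from 28.5 per Mb in DNA repair genes (0.722 to 159) to 444 in Hox genes (11.2 to 2474). The histone methyltransferase group Kmt had 7 peaks in 3 of 7 genes, 4 of them in Kmt2d and none with H3K4me3, and the Kdm demethylases had 7 in 4 of 15, with 3 in Kdm5b. The DNA methylation genes had 6 in 4 of 8, with 2 each in Tet2 and Tet3 and 1 in Dnmt3a. The CHD helicases had 4 in 3 of 10, led by Chd5, and CTCF and cohesin genes had 2 in 2 of 8, namely Ctcf and Nipbl. DNA repair genes had 1 in 12 (Brca2) and Hox genes 1 in 9 (Hoxc9). Only these 9 of 39 autosomal Hox genes had coding sequence over 2 kb from starts. Kinesins had 9 in 8 of 38 (Kif1c with 2) and tubulins 3 in 3 of 20 (Tubb6, Tuba1c and Tuba3a).

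Pluripotency genes, which keep stem cells undifferentiated, held 6 peaks in 5 of the 14 with eligible coding sequence, 569 per Mb (209 to 1239) over little sequence. Klf5 held 2, of 195 and 436 bp, both under H3K4me3. Zfp42 held a peak of 458 bp with a weak H3K4me3 peak (fold enrichment 3.37). Nanog (179 bp), Esrrb (161 bp) and Sall4 (397 bp) held 1 each in the last coding exon, without H3K4me3. The 9 without a peak were Tfcp2l1, Prdm14, Klf4, Lin28a, Tbx3, Tdgf1, Trim71, Dppa4 and Dppa2. All 14 had H3K4me3 and ATAC-seq peaks at their starts.

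Short sequence motifs were searched on both strands of the central 200 bp. For exons without a peak this was the 200 bp around the exon middle, which can reach into introns. The CTCF core CAGGNGGC was in 13.1% of coding-exon peaks (12.0 to 14.4), as in the Clip1, Fam83c and Prr12 peaks printed above. UTR peaks held it in 10.3% of cases (9.26 to 11.4) and peaks within 2 kb of a start in 10.2%. It was in 8.16% of intronic peaks (7.92 to 8.40), 7.78% of intergenic peaks and 5.31% (5.02 to 5.61) of windows in coding exons of the same genes without a peak. The E-box CAGCTG was in 20.2% of coding-exon peaks, 13.6% of intronic peaks and 16.2% of exon windows without a peak. The ZIC letters CAGCAGG, which can overlap the CTCF core, were in 17.1% (15.8 to 18.4), 13.6% and 9.34%. UTR peaks had the ZIC letters in 15.8% (14.6 to 17.1), with an interval that overlaps that of coding-exon peaks. The octamer and the AP-1 letters were less frequent than in intronic or intergenic peaks. The octamer ATGCAAAT of POU factors was in 0.803% of coding-exon peaks (0.545 to 1.18), 2.41% of intronic peaks and 4.30% of intergenic peaks, against 0.623% of exon windows without a peak. The AP-1 letters TGANTCA were in 5.11%, 10.8% and 10.1%, against 4.33%.

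None of the remaining motifs was more frequent in coding-exon peaks than in intronic peaks beyond counting error. The KLF letters GGGTGTGG were in 3.21% of coding-exon peaks and 1.34% of these exon windows, and the SP letters GGGCGGGG in 3.92% and 0.833%, while intronic peaks had 5.12% and 3.37%. The SOX letters CATTGT were in 8.29% of coding-exon peaks and 10.7% of intronic peaks, and the TEAD letters GGAATG in 9.16% and 12.8%. The ESRRB letters TCAAGGTCA (0.385%), the REST letters TTCAGCACC (0.610%) and the NRF1 letters GCGCATGCG (0.225%) were each in under 1% of coding-exon peaks. These shares were not matched on base composition or on how much of each window was coding. A match to letters is not a bound site.

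The density of coding-exon peaks ranged from 116 per Mb (93.8 to 142) on chromosome 13 to 234 (196 to 276) on chromosome 18. The other chromosomes lay between 122 and 190 per Mb.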

How the data were processed

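ATAC-seq and H3K4me3 ChIP-seq peak lists of F123 mESCs were analysed, 1 list per assay for 2 replicates each. The authors aligned ATAC-seq reads to mm10 with Bowtie 1.1.2, removed duplicates and mitochondrial reads with SAMtools, and moved read ends 4 bp. They called peaks with MACS2 2.1.1.20160309, with a cutoff on the p-value rather than on a false discovery rate and with summits called. Pooled peaks found in both replicates were kept with bedtools 2.27.1. That deposited list holds positions only, so its peaks could not be filtered by strength. For H3K4me3 the authors used the ENCODE histone pipeline, whose aligner and caller versions are not given in the sources used here. Its deposited columns are a display score, a fold enrichment (a ratio over background), −log10 p and −log10 q values and a summit position. PLAC-seq and input samples were not analysed here. Neither list has read counts, so depth is unknown.

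Genes came from GENCODE M21 and sequence from the RefSeq copy of mm10. Peaks were assigned by midpoint, in the order coding, UTR, noncoding exon, intron, noncoding intron, intergenic, and those within 2 kb of a transcript start were set apart. Densities are midpoints per known base. Overlap with H3K4me3 needed 1 bp, and GC and CpG were read from 200 bp windows. A fold enrichment given for an ATAC-seq peak is that of the whole H3K4me3 peak it overlapped, the strongest where there were several. No test over samples was run. Genes were named by rule: the 12 with most peaks, the 8 with most per kb among those with at least 4, the 5 widest peaks, the 5 with the highest H3K4me3 fold enrichment, the 5 exons with most peaks, the first 3 genes of each group and all pluripotency genes. Sequences were printed from peaks of at most 300 bp outside chromosome 18. An exon that the rule named is not reported here. The strongest peaks covering no start were added after the values were seen. The set, the gene groups and the motifs were chosen with earlier results of these data known. The assignment was checked against bedtools 2.31.1, which gave the same 3113 peaks, and tested on simulated data. Scripts ran under Python 3.11.15 with scipy 1.17.1 for intervals, pandas 2.3.3 for tables, numpy 2.4.6 and, for drawing, matplotlib 3.10.9. The alternatives included other distances from starts, other rules of overlap and subsets of peaks.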

Additional observations from a re-analysis of the deposited data

Results flagged for a closer look

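Chromosome X was outside the comparisons above, and its peaks are given as values because those comparisons did not use them. It held 41 ATAC-seq peaks in coding exons over 2 kb from starts, 48.0 per Mb (34.4 to 65.1), and 17 of them overlapped H3K4me3. Introns of chromosome X held 27.1 peaks per Mb (25.4 to 28.8). Both densities were below the autosomal values of 154 and 66.2, with no test of the difference.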

How the results depend on the processing

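Of 51 values under alternatives, 27 stayed, 22 moved and 2 reversed. Merging overlapping ATAC-seq rows removed 0 rows, so the values under that alternative could only stay. Keeping the widest 50% of ATAC-seq peaks could only lower the counts and the coding density. A count stayed when it was within 1.5 times the main one, and a density, ratio or share when it was inside the 95% interval of the main value. The ratio of coding to intronic density fell from 2.33 to 0.751 with introns at the GC mix of coding sequence and to 0.910 at the CpG mix, both chosen after seeing the data. It was 1.89 when at least 50% of the peak had to be coding and 3.22 for the widest 50% of ATAC-seq peaks. The coding density of 154 per Mb became 161 over 1 kb from starts, 149 over 5 kb, 125 with at least 50% coding and 91.8 for the widest 50%. The set shrank from 3113 to 2006 peaks over 5 kb from starts and to 1852 for the widest 50%, and genes with a peak from 2506 to 1632 and 1622. The H3K4me3 share of 35.8% became 39.0% over 1 kb, 31.6% over 5 kb, 49.4% for the widest 50% and 33.6% when 50% of the peak had to lie in H3K4me3. The intronic share of 8.09% became 9.68%, 7.05%, 13.5% and 5.81%, and 7.48% after a minimum −log10 q of 5 was asked of the H3K4me3 peaks. At the mix of the coding-exon peaks it was 12.9% (GC), 19.5% (CpG) and 14.1% (GC and width), weightings chosen after seeing the data. The causes were not tested beyond these. No paired analysis was possible because each list stands for both replicates, and no replicate could be left out for the same reason.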
